A study of Homo sapiens with 3 samples.

Results

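A set of 9 genes of origin recognition and licensing was followed in LNCaP-abl cells in which the transcription factor E2F1 had been silenced. They are ORC1, ORC2, ORC3, ORC4, ORC5 and ORC6, the loading factors CDC6 and CDT1, and GMNN, which encodes geminin. They were taken by symbol, and all 9 were found among the 22613 genes listed in each library. LNCaP-abl is an androgen-independent line derived from the LNCaP prostate cancer line, grown here in medium with charcoal-stripped serum. RNA was collected 72 h after lipid transfection with an siRNA pool against E2F1 (siE2F1, 1 library) or with control siRNA (2 libraries, control 0 and control 1). No gene value in the siE2F1 group has a replicate, and no label says whether the controls were separate cultures, so the spread behind each p-value may be technical.

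Before a cell copies its DNA, each origin is licensed. The origin recognition complex, built from the ORC1 to ORC6 proteins, marks the origin, and CDC6 and CDT1 join it to load the MCM helicase. Geminin binds CDT1 and blocks a second round of loading once S phase has begun. ORC1, CDC6 and CDT1 are textbook targets of E2F factors and their proteins are destroyed and made again in each cycle, whereas most of the core ORC subunits are held at steady levels.

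The stretches around the transcription start sites of the genes on which the results turn are shown here, since E2F factors bind near start sites. They come from RefSeq (GRCh38.p14), a later build than the hg19 named for the expression values, and were used for no expression value. All 9 members had a RefSeq window, 11 windows in all, because ORC4 and GMNN each have 2 start sites. Each line runs 5′ to 3′ along the gene's strand, from 170 bases before the start site through 30 bases from it. Capitals mark matches on either strand to an E2F heptamer or octamer, as spelled out below. CDC6, CDT1, ORC1 and ORC6 are the members with the largest negative log2 fold changes. GMNN (the second start site, the one with an octamer) and ORC4 (the second start site) are shown for contrast, since GMNN lay close to the controls and ORC4 above them.
CDC6, chr17:40287709-40287908, plus strand: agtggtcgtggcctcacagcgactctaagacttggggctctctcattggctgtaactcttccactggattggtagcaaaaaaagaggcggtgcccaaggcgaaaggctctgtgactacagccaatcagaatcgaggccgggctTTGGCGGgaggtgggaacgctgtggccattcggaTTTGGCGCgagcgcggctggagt
CDT1, chr16:88803619-88803818, plus strand: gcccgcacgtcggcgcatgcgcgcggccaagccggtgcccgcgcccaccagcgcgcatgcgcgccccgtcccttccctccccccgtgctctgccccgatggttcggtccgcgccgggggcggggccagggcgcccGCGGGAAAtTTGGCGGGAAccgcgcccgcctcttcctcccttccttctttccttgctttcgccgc
ORC1, chr1:52404394-52404593, minus strand: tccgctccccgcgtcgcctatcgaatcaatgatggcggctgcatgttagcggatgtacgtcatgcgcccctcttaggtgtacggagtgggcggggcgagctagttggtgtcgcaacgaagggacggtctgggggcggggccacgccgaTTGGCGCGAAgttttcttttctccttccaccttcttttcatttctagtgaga
ORC6, chr16:46689489-46689688, plus strand: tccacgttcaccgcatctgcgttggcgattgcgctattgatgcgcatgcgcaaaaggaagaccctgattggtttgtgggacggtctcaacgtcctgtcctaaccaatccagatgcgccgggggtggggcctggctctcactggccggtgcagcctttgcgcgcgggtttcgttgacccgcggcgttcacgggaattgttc
GMNN, chr6:24775243-24775442, plus strand: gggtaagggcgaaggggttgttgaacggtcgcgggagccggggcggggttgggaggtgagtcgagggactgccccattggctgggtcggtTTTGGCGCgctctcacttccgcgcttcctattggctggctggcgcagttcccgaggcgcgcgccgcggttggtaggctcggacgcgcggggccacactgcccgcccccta
ORC4, chr2:148020708-148020907, minus strand: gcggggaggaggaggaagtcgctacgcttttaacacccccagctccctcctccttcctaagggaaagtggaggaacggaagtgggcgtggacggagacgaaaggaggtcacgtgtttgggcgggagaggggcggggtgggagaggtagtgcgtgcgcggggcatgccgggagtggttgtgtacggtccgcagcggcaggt

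The E2F heptamer searched was TTNNCGN and the octamer TTTNNCGC, with each N read as C or G only, and each octamer contains a heptamer. Both strands of the whole 300-base window (250 bases before the start site and 50 from it) were read. CDC6 held TTGGCGG 27 bases before its start site and TTTGGCGC 7 bases after it. CDT1 held 3 heptamer matches, which begin 35, 26 and 23 bases before its start, the first of them within an octamer. In ORC1, 2 overlapping heptamers began 22 and 19 bases before the start. ORC3 had an octamer 12 bases before its start, and GMNN had a heptamer 34 bases before its first start and an octamer 80 bases before its second. ORC2, ORC4, ORC5 and ORC6 had no match to these letters in their windows. The ORC6 window does hold TTGGCGA and, on the other strand, TTCCCGT, each of which fails only at the last base. The letters were chosen after the windows had been seen.

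By gene, 5 of the 9 members held a heptamer and 4 an octamer. Among the 8828 tested genes with a RefSeq window the shares were 43.7% and 6.77%, and among all 35116 windows 23.7% and 3.31%. The CCAAT box (CCAAT on either strand), a binding site of the factor NF-Y, was found in 6 members, against 43.7% of those tested genes and 34.6% of all windows. In ORC1 it overlaps the E2F heptamer. The cell cycle homology element (TTTGAA or TTCGAA), a mark of many G2/M promoters, was found in 0 members, against 15.1% of tested genes and 16.4% of windows. A match describes letters, not binding.

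**Figure D1:**
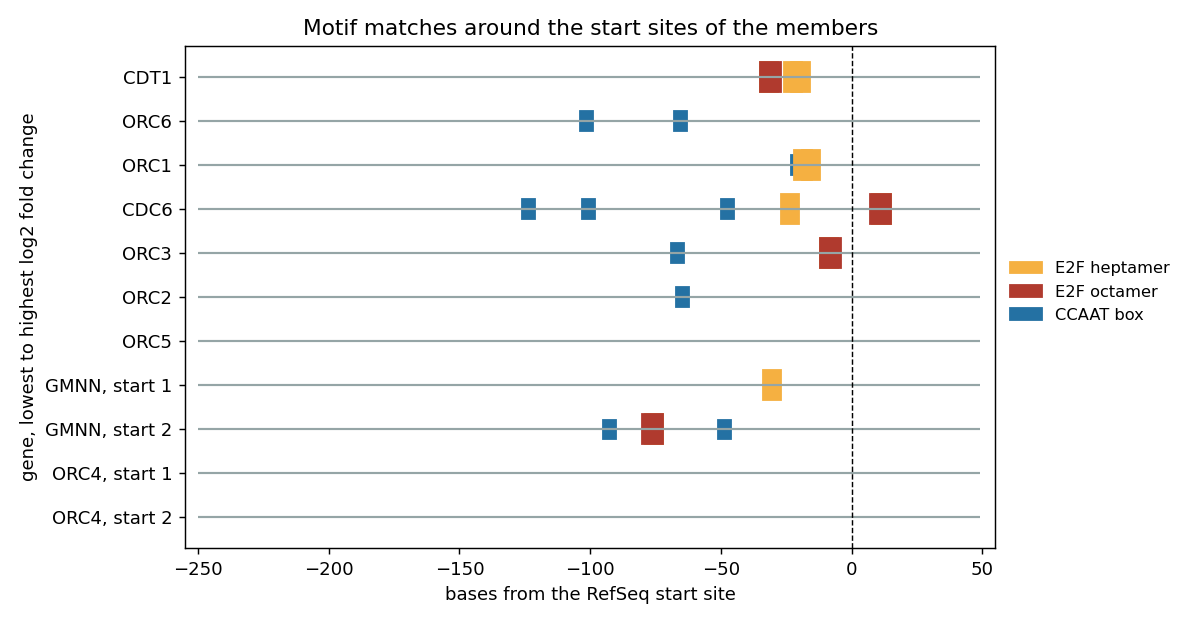
Positions of the motif matches relative to each RefSeq start site (dashed line, in bases), with genes ordered from the lowest to the highest log2 fold change. CDT1, ORC1, CDC6 and ORC3 carried E2F matches close to the start, as did the first window of GMNN, whose level lay near the controls. Of the letters searched, ORC6 carried only CCAAT boxes, and neither ORC4 window held a match.

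The silencing itself was visible in the libraries: E2F1 was listed at 10.6 FPKM in each control and at 1.68 FPKM in siE2F1 (log2 fold change -2.12, adjusted p = 0.0311 by limma). FPKM is fragments mapped to a transcript, scaled by its length and by the size of the library, so levels of different genes can be compared. The deposited values may have been normalized further, as described below, and sums, shares and ratios of FPKM rest on them as deposited. Of 12 luminal prostate markers, 10 were at 1 FPKM or more in every library. KLK2 and KLK3, which encode androgen-driven kallikreins, were below 1 FPKM in every library. Of 12 markers of blood, endothelial, fibroblast, basal or mesenchymal cells, 5 were analysed here. Their summed level ran from 3.33 to 4.25 FPKM per library, against 1279 to 1432 FPKM for the luminal markers. In bulk RNA, fewer cells in a given phase of the cycle and less RNA per cell cannot be told apart.

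Licensing transcripts were lower in siE2F1 for the 2 loading factors and for ORC1 and ORC6, somewhat lower for ORC3, close to the controls for ORC2, ORC5 and GMNN, and higher for ORC4. In all, 8 of the 9 members lay below both controls and 1 above both, where 39.7% of the 14401 genes tested lay below and 43.7% above. For 6 members the distance below the lower control exceeded the gap between the controls (29.1% of all genes tested), and for 1 member the distance above the higher control did (30.4% of all genes). The 6 include ORC2, whose controls differed by only 0.0048 on the log2 scale. None of the 9 was 2-fold or more below both controls (0.833% of genes tested). Fold changes are differences of log2(FPKM + 1) between siE2F1 and the control mean, a scale that understates the change of low genes. Tested over all genes, limma called 0 members lower and 0 higher at an adjusted p of 0.05 (0.104% and 0.312% of genes), with 5 lower and 1 higher at an unadjusted p under 0.05 (14.9% and 13.5% of genes). Small RNA genes made up 50 of the 60 genes called in all. Many of the 473 small RNA genes tested, called or not, gave unsteady values. Control 0 and control 1 were 2-fold or more apart for 45.7% of the 473 and for 0.337% of the other genes tested. With small RNA genes left out of the fit, limma called 3 members lower, CDT1, ORC6 and CDC6, and 0 higher (6.36% and 4.17% of 13928 genes).

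**Figure D2:**
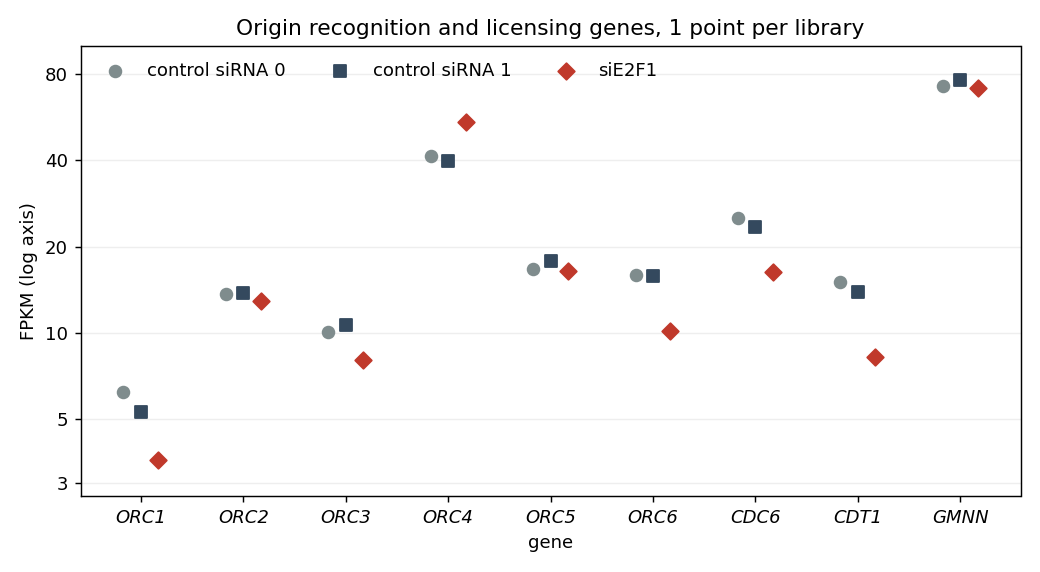
FPKM of each member (log axis), 1 point per library: control 0, control 1 and siE2F1. The siE2F1 points of CDT1 (8.27 FPKM), ORC6 (10.2), CDC6 (16.3) and ORC1 (3.61) sit well below their 2 control points, and that of ORC4 (54.2) above.

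ORC1, the largest subunit and an ATPase, was the least abundant of the 9. It was at 6.21 FPKM in control 0, 5.29 in control 1 and 3.61 in siE2F1. The siE2F1 value was below both controls and 62.8% of their mean, but ORC1 also had the widest control gap of the members (0.20 on the log2 scale). Its log2 fold change was -0.55 ± 0.12 (limma standard error; adjusted p = 0.139; 0.0600 without small RNA genes). The distance from siE2F1 to the nearer control was 2.28 times the gap between the controls.

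ORC6, the smallest subunit and the least like the others in sequence, measured 16.0 and 15.7 FPKM in control 0 and control 1, against 10.2 FPKM in siE2F1. The controls nearly coincided, and siE2F1 lay 32.3 times their gap below the nearer of them. The siE2F1 level was 64.1% of the control mean. The log2 fold change was -0.59 ± 0.06 (limma standard error; adjusted p = 0.111), and the call was made only without small RNA genes (adjusted p = 0.0364).

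ORC2, ORC3, ORC4 and ORC5 form the rest of the complex, with ORC2 and ORC3 bound directly to each other in its core. ORC3 measured 10.1 and 10.6 FPKM in the controls, against 8.08 FPKM in siE2F1, 77.9% of the control mean. It was below both controls, with a log2 fold change of -0.32 ± 0.07 (limma standard error; adjusted p = 0.134; 0.0756 without small RNA genes). ORC2 measured 13.7 and 13.7 FPKM in the controls, against 13.0 FPKM in siE2F1 (log2 fold change -0.08, limma adjusted p = 0.459). ORC5, an ATPase subunit, measured 16.7, 17.8 and 16.5 FPKM in control 0, control 1 and siE2F1 (log2 fold change -0.06, limma adjusted p = 0.631). For ORC5 the siE2F1 value was just under control 0, nearer to it than the controls were to each other.

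ORC4, an ATPase subunit of the complex, lay on the other side of the controls. It measured 41.5 and 39.8 FPKM in control 0 and control 1, against 54.2 FPKM in siE2F1, the only member above both controls. This is 133.3% of the control mean, and siE2F1 lay 6.34 times the control gap from the nearer control. The log2 fold change was 0.41 ± 0.07 (limma standard error; adjusted p = 0.119; 0.05002 without small RNA genes, just outside the threshold). In the GENCODE annotation the ends of ORC4 overlap MBD5 and ACVR2A on the opposite strand, and the library kit does not mark strand. MBD5, a methyl-CpG-binding domain gene that starts beside ORC4, was at 3.39, 2.82 and 4.70 FPKM, and ACVR2A, an activin receptor, at 2.79, 2.85 and 3.08 FPKM. Both were far below ORC4 and above both controls in siE2F1, and without strand the reads at these ends cannot be told apart; their part in the ORC4 value was not tested.

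The ORC transcripts differed in proportion more than in total. The summed FPKM of the 6 ORC genes was 104.1, 103.01 and 105.4 in control 0, control 1 and siE2F1. ORC4 was higher (41.5, 39.8 and 54.2 FPKM) while every other ORC gene was below both controls, so opposite differences cancel in the total. Reads at the ends of ORC4 that cannot be told from MBD5 and ACVR2A also enter this sum. ORC4 made up 39.9% and 38.6% of this sum in the controls and 51.4% in siE2F1. ORC6 made up 15.3% in each control and 9.63% in siE2F1, and ORC1 5.96% and 5.13% in the controls and 3.42% in siE2F1. The FPKM of ORC4 was 6.68 and 7.52 times that of ORC1 in the controls and 15.01 times in siE2F1. These shares and ratios were not tested.

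**Figure D3:**
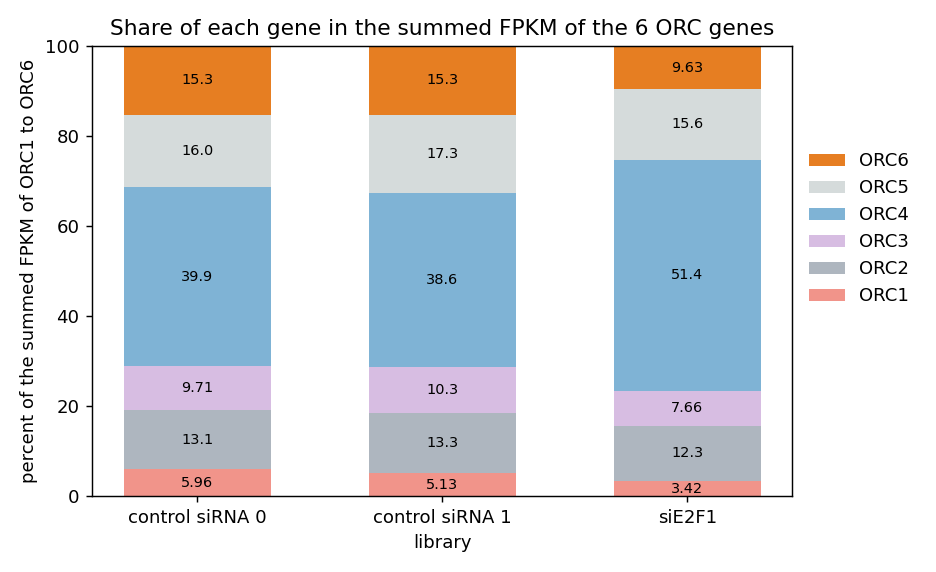
Share of each ORC gene in the summed FPKM of ORC1 to ORC6, in percent, for each library. The ORC4 share is 51.4% in siE2F1 against 39.9% and 38.6% in the controls, and the ORC6 and ORC1 shares are smaller in siE2F1 than in either control.

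CDC6, an ATPase related to ORC1 that is recruited to ORC, measured 25.2 and 23.4 FPKM in the controls, against 16.3 FPKM in siE2F1. The siE2F1 value was below both controls, at 67.1% of their mean. Its log2 fold change was -0.55 ± 0.08 (limma standard error; adjusted p = 0.112; 0.0403 without small RNA genes). The ratio of ORC1 to CDC6 was 0.247 and 0.226 in the controls and 0.221 in siE2F1. The siE2F1 ratio was thus below both controls, but nearer to control 1 than the controls were to each other, and it was not tested.

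CDT1, which brings the MCM helicase to ORC and CDC6, had the largest negative log2 fold change of the 9. It measured 15.1 and 13.9 FPKM in control 0 and control 1, against 8.27 FPKM in siE2F1. The siE2F1 level was 57.2% of the control mean and 6.15 times the control gap below the nearer control. The log2 fold change was -0.74 ± 0.08 (limma standard error; adjusted p = 0.111; 0.0353 without small RNA genes). Of all genes tested, 3.13% had a lower log2 fold change than CDT1.

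GMNN, the inhibitor of CDT1, was the most abundant member and lay near the controls. It was at 72.5 FPKM in control 0, 75.95 in control 1 and 71.4 in siE2F1. The siE2F1 value was under control 0 by less than the difference between the controls (log2 fold change -0.06, standard error 0.07, limma adjusted p = 0.633). The FPKM of GMNN was 4.82 and 5.48 times that of CDT1 in the controls and 8.63 times in siE2F1. The same ratio of GMNN to CDC6 was 2.88 and 3.24 in the controls and 4.38 in siE2F1. Both ratios were higher in siE2F1 than in either control, and neither was tested. They describe transcripts only, since CDT1 and geminin proteins are controlled mainly by degradation.

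**Figure D4:**
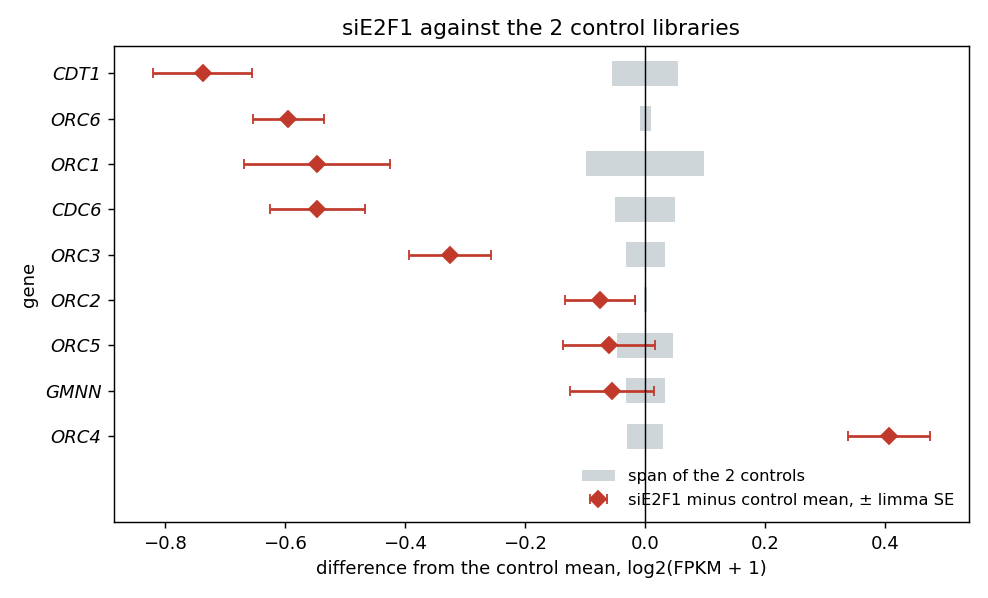
Difference of siE2F1 from the control mean on the log2(FPKM + 1) scale for each member (diamonds, with the limma standard error), beside the span of the 2 controls (grey bars centred on their mean). CDT1, ORC6, ORC1, CDC6 and ORC3 lie far to the left of their control span, ORC2 just to the left and ORC4 to the right, and the error bars of ORC5 and GMNN cross 0.

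By control mean the order of levels, from high to low, was GMNN, ORC4, CDC6, ORC5, ORC6, CDT1, ORC2, ORC3 and ORC1. GMNN stood above 92.9% of the genes tested by its mean over the 3 libraries, and ORC1 above 33.4%. Control values of neighbours in this order did not overlap, though CDT1 (14.5 ± 0.84 FPKM, SD, n = 2) and ORC2 (13.7 ± 0.03) differed by less than the SD of CDT1. In siE2F1 the order was GMNN, ORC4, ORC5, CDC6, ORC2, ORC6, CDT1, ORC3 and ORC1. ORC5 (16.5 FPKM) thus stood just above CDC6 (16.3), and ORC2 (13.0) above both ORC6 (10.2) and CDT1 (8.27).

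In the GENCODE annotation several members have a neighbour on the opposite strand within 1000 bases, at the start or the other end. These neighbours were looked up after the values of the members had been seen. PRPF38A, a splicing gene that starts beside ORC1, measured 29.6, 30.9 and 28.9 FPKM in control 0, control 1 and siE2F1 (log2 fold change -0.06, against -0.55 for ORC1). RARS2, a mitochondrial arginyl-tRNA synthetase gene beside ORC3, was at 10.95, 11.8 and 11.1 FPKM (-0.03, against -0.32 for ORC3). VPS35, a retromer gene beside ORC6, was at 45.3, 48.4 and 55.1 FPKM (0.23, against -0.59 for ORC6). AC005037.1, which overlaps the start of ORC2, was too low to test. APRT, a purine salvage gene near the other end of CDT1, was at 211.98, 247.8 and 190.8 FPKM (-0.26, against -0.74 for CDT1). PRPF38A was below both controls by little, APRT was below both, RARS2 lay between them and VPS35 was above both. The adjusted p was 0.579, 0.833, 0.205 and 0.313 for PRPF38A, RARS2, VPS35 and APRT (limma), and the difference between each neighbour and its partner was not tested.

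The steps on either side of licensing were described with 3 further lists. The list of the helicase and its partners had 12 of 13 genes tested, of which 10 were below both controls and 1 above (median log2 fold change -0.49). The list of origin firing had 15 tested, with 14 below and 0 above (median -0.55). The list of turnover and kinase control had 17 tested, with 11 below and 4 above (median -0.27). The members' median was -0.32 and that of all genes tested was 0.01. Of all genes tested, 39.7% lay below both controls and 43.7% above both. Over all genes, limma called 0 genes of these lists in either direction, with 9, 14 and 8 genes lower and 0 higher at an unadjusted p under 0.05, where 14.9% of all genes were lower and 13.5% higher. Without small RNA genes it called 6, 11 and 6 lower and 0 higher, where 6.36% of all genes were called lower and 4.17% higher.

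Among helicase genes, MCM3, a subunit of the MCM ring, measured 41.3, 34.8 and 15.4 FPKM in control 0, control 1 and siE2F1 (log2 fold change -1.25). MCM5 (-0.69) and MCM2 (-0.64), also of the ring, and MCM8 (-0.58), a relative that acts in repair, followed. Each of these 4 had a siE2F1 level below both controls. MCIDAS and GMNC encode coiled-coil relatives of geminin and are named after their values were seen. MCIDAS was at 4.33, 4.85 and 2.82 FPKM (-0.55), and GMNC was too low to test, at 0.417, 0.481 and 0.839 FPKM.

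Among firing genes, MCM10, a helicase activator, was at 8.19, 7.72 and 2.82 FPKM (log2 fold change -1.23). GINS2, a subunit of the GINS complex of the active helicase, was at 22.0, 21.9 and 9.11 FPKM (-1.18). POLE2, a subunit of DNA polymerase epsilon, and CDC45, the third part of the active helicase, had log2 fold changes of -0.87 and -0.79. MCM10 and GINS2 were the 2 firing genes at least 2-fold below both controls. In the helicase list 1 gene, MCM3, was also that far below, and in the list of turnover and kinase control 0 were, where 0.833% of all genes tested were.

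Among regulators of licensing, DTL, the receptor through which the CUL4-DDB1 ligase destroys CDT1, was at 8.79, 7.86 and 3.57 FPKM (log2 fold change -1.03). PCNA, the sliding clamp on which that destruction takes place, was at 116.7, 115.7 and 67.8 FPKM (-0.77). CDC20, an activator of the anaphase-promoting complex, which marks geminin for destruction, was at 59.4, 56.8 and 30.5 FPKM (-0.91). CCNE2, a cyclin E, had a log2 fold change of -0.67. SKP2, of another ligase for CDT1, was at 8.02 FPKM in siE2F1, between the controls (7.795 and 8.201 FPKM). CUL4A was at 34.2, 32.1 and 34.7 FPKM, its paralogue CUL4B at 21.9, 22.4 and 21.7 FPKM and DDB1 at 22.5, 20.2 and 26.1 FPKM. SKP2, CUL4A, CUL4B and DDB1 are named after their values were seen. DTL and PCNA were thus below both controls, SKP2 was between them and DDB1 was above both. CUL4A lay above and CUL4B below both controls, each by less than the gap between its controls.

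**Figure D5:**
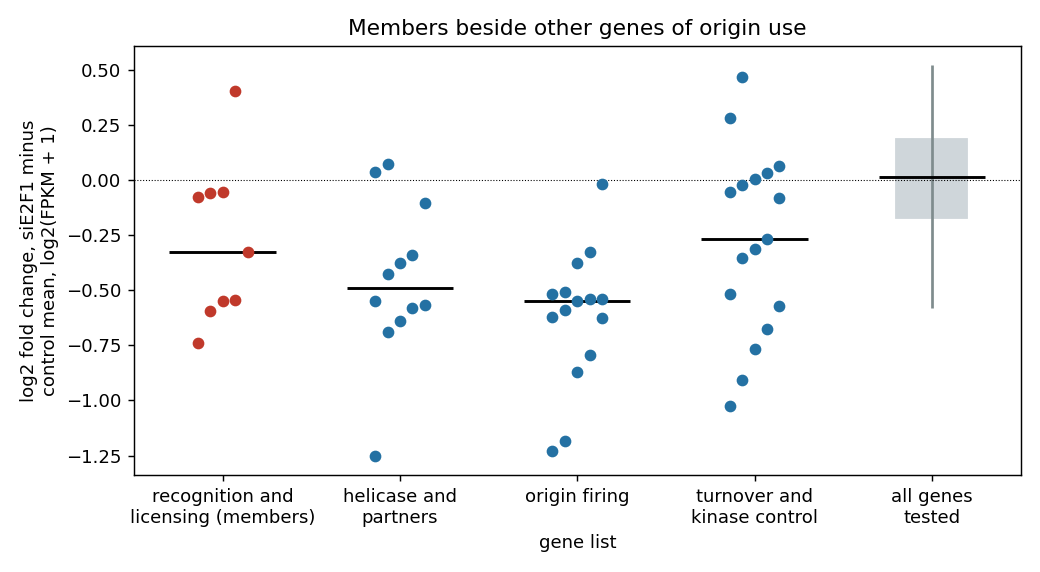
Log2 fold change of each tested gene in 4 lists (points; black lines are medians), with all genes tested as a median, a box from the 25th to the 75th and a line from the 5th to the 95th percentile. The medians of the lists lie between -0.55 and -0.27, and ORC4 (0.41) is the only member above 0.

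The genes most like the members in their pattern were taken by the Euclidean distance of their 3 centred log2(FPKM + 1) values to the mean profile of the 9 members. The nearest 5 were ENSG00000231212, RPS6KA2, CCP110, FANCM and TMEM222, at distances of 0.003 to 0.005. With 3 libraries this measure separates genes poorly, and 1429 genes lay within 0.1. FANCM, a helicase of the Fanconi pathway, was at 2.42, 2.35 and 1.77 FPKM, and CCP110, a centriole gene, at 6.19, 6.08 and 4.88 FPKM. RPS6KA2 was at 5.51, 5.37 and 4.30 FPKM, TMEM222 at 20.4, 20.04 and 16.5 FPKM, and ENSG00000231212 at 1.76, 1.71 and 1.24 FPKM. All 5 were below both controls, which their choice by closeness to a mean profile below both controls requires.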

How the data were processed

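The labels' protocols name the Illumina TruSeq RNA kit (v2). TopHat2 2.0.4, Cufflinks 2.0.2 and hg19 appear in the submitters' processing notes, with parameters and annotation not given in the sources used here. Each library was deposited by the authors as log2 FPKM per gene. The lowest value equals log2 of 0.1, so 0.1 was subtracted after raising 2 to the deposited value. The sorted values are nearly alike in the 3 libraries, as quantile normalization gives, so a change shared by most genes would not be seen. Some values also recur between libraries in different genes, such as 21.9933 FPKM for GINS2 in control 0 and for MCM2 in siE2F1. No source used here says whether the libraries were normalized in this way. Without read counts the depth is unknown and counting intervals cannot be given.

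The 14401 genes whose mean reached 1 FPKM were fitted as log2(FPKM + 1) in R 4.3.3 with limma 3.58.1 (mean-variance trend, two-sided, Benjamini-Hochberg adjustment over all genes tested, 0.05). The controls give the only spread, 1 residual degree of freedom, and siE2F1 is assumed to vary as they do. The step was tested on simulated data, but with small RNA genes left out and with planted changes larger than that of any member. The main fit itself, which holds those genes, was not simulated. Small RNA genes are those whose symbols start with RNU, SCARNA, MIR or SNOR, other than host genes. The members, lists and settings were chosen with earlier results of these data known, and motif letters after the windows had been seen. All members are named, with up to 4 genes of largest absolute log2 fold change per further list and the 5 genes of most similar profile. Of the listed genes, 1 firing gene and 7 markers are not analysed here.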

Additional observations from a re-analysis of the deposited data

How the results depend on the processing

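Besides the main setting, 10 settings were run: a pseudocount of 0.1, no filter, a mean of at least 5 FPKM, the lowest value read as a floor, a common median, quantile normalization, no mean-variance trend, no small RNA genes, and each control left out (values with no test). Each of the 9 members kept the sign of its log2 fold change in all of them, but these settings could hardly have changed a sign. Every member's siE2F1 value lay below both controls or above both. Leaving out a control, or another pseudocount or floor, therefore cannot reverse it. The filters, the trend and the small RNA genes do not enter a member's log2 fold change. The common median shifted no library (largest shift 0), and quantile normalization left the members' values nearly as they were. CDT1 ran from -0.80 to -0.68, ORC6 from -0.64 to -0.59, ORC1 from -0.65 to -0.45, CDC6 from -0.60 to -0.50 and ORC4 from 0.38 to 0.44. Leaving out control 0 or control 1 moved ORC5 from -0.06 to -0.11 or -0.014, and GMNN from -0.06 to -0.09 or -0.023. The number of members called by limma was 0 in every tested setting but the fit without small RNA genes, where it was 3 (CDT1, ORC6 and CDC6). Their adjusted p ranged from 0.0353 to 0.188 for CDT1, 0.0364 to 0.188 for ORC6 and 0.0403 to 0.188 for CDC6, with no filter giving the highest. The calls over all genes moved as well. They were 60 of 14401 genes in the main setting, 0 of 21691 with no filter and 1467 of 13928 in the fit without small RNA genes. That fit drops 473 small RNA genes and has 3.19 prior degrees of freedom in place of 1.69. With a single siE2F1 library, how it would vary between cultures was not measured.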
